A study of Mus musculus with 12 samples.

Results

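Genes that bring fatty acids into the hepatocyte, carry them through the cytosol and couple them to coenzyme A were examined in liver RNA. The members, taken by gene symbol from the expression table, were Cd36, Slc27a2, Fabp1, Fabp2, Acsl1, Acsl3, Acsl4 and Acsl5, 8 of 54532 genes listed, and each matched 1 row. All 8 were among the 13447 genes tested, which had a mean of at least 0.5 FPKM (fragments per kilobase of gene, adjusted for library size). Whole liver was profiled by bulk RNA sequencing in 12 libraries of Apoe knockout mice, whose missing apolipoprotein E leaves lipoprotein remnants in the blood. The mice of 6 libraries had been given Rspo2-AAV, an adeno-associated virus that carries Rspo2, and those of the other 6 a control AAV that carries Gfp. Both groups thus share the Apoe knockout and an AAV injection. Apoe was at 43.1 to 101 FPKM in Rspo2-AAV livers and 38.9 to 149 FPKM in control livers, and a level over the whole gene does not show whether the targeted part is missing. The age, sex and diet of the mice, the time after injection and the promoter of the vectors were not given in the sources used here. By its title, the study concerns liver steatosis and the AMPK-ACC pathway. Libraries carry the numbers 1, 2, 4, 5, 6 and 7 in the Rspo2-AAV group and 1 to 6 in the control group. The labels do not say that each library is a separate animal, and the p-values describe only how far these samples spread, which may be technical.

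Some libraries stood apart before any member was considered. Recovered reads ran from 14295644 to 22195576 per library. Rspo2 was at 122 and 49.9 FPKM in Rspo2-AAV 1 and 2 and at 265 to 573 FPKM in Rspo2-AAV 4 to 7. All 6 control libraries were at 0. Rspo2-AAV 2 held both Xist, the RNA that silences an X chromosome (5.57 FPKM), and 4 Y-linked genes (17.8 FPKM summed), while Rspo2-AAV 1 and control 3 had high Xist (28.0 and 42.0 FPKM) and little of the Y-linked genes (0.0764 and 1.28 FPKM). The other 9 libraries had Xist under 1 FPKM. Scd1, a desaturase gene, was at 331 to 541 FPKM in libraries numbered 1 to 3 and at 2457 to 3662 FPKM in those numbered 4 to 7, in both groups. Pancreatic acinar genes took 7.97% of the reads of Rspo2-AAV 4, 0.713% of those of Rspo2-AAV 5 and at most 0.0827% elsewhere. The 8 hepatocyte markers that matched a row summed to 21770 to 45790 FPKM in Rspo2-AAV livers and 26990 to 52300 FPKM in control livers, and 0 of them were called by limma. Among them Alb, which encodes serum albumin, was at 12860 FPKM in Rspo2-AAV livers and 20512 FPKM in control livers on average (log2 change -0.62, adjusted p = 0.184). The split by number was first drawn from Scd1 in these same data and is no batch that the labels name, so results within it are given beside those of all 12 libraries.

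Long-chain fatty acids reach the hepatocyte from the blood and cross its membrane with the help of CD36, a scavenger receptor, and of the fatty acid transport proteins of the SLC27 family. In the cytosol they are held by fatty acid binding proteins, above all by FABP1, the abundant liver form. Acyl-CoA synthetases then join them to coenzyme A, which traps them in the cell and commits them to oxidation, to triglyceride or phospholipid synthesis, or to protein and cholesterol esters. Isoforms differ in place and preference: ACSL1 is the main synthetase of liver and fat, ACSL3 sits on the endoplasmic reticulum and lipid droplets, ACSL4 prefers arachidonic acid, and ACSL5 is found on mitochondria and the endoplasmic reticulum.

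In control livers the order of mean levels per length was Fabp1 (3253 FPKM), Slc27a2 (430.0 FPKM), Fabp2 (96.1 FPKM), Acsl1 (95.7 FPKM), Acsl5 (43.5 FPKM), Cd36 (37.5 FPKM), Acsl4 (10.4 FPKM) and Acsl3 (2.83 FPKM). Fabp2 and Acsl1 overlapped in their ranges, as did Acsl5 and Cd36, and these neighbours cannot be ordered. In Rspo2-AAV livers Acsl4, Acsl3 and Acsl5 had higher means than in control livers, Fabp1, Fabp2, Slc27a2 and Acsl1 had lower means, and Cd36 had about the same. Over all 12 libraries 1 of the 8 members was called, Acsl4, which rose, against 5.2% of all tested genes (2.55% called higher and 2.65% called lower). A call is an adjusted p under 0.05 in limma, a linear model fitted on log2(FPKM + 0.5) with Benjamini-Hochberg adjustment over all tested genes. Of the members, 6, all but Cd36 and Acsl5, had an unadjusted p under 0.05, against 21.5% of all tested genes. The median log2 change of the 8 was -0.27, against 0.00 for all tested genes. Groups did not overlap for 0 of the 8, against 3.24% of all tested genes. Without Rspo2-AAV 2, the library with mixed Xist and Y-linked RNA, 4 of the 8 were called, against 6.72% of tested genes: Acsl4 rose (3.07% of tested genes called higher) and Fabp1, Fabp2 and Slc27a2 fell (3.64% called lower). Without Rspo2-AAV 1 and 2, 6 were called, 3 higher and 3 lower, against 4.98% and 5.03% of tested genes. That set keeps control 1 to 3, so its groups also differ in their library numbers.

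**Figure D1:**
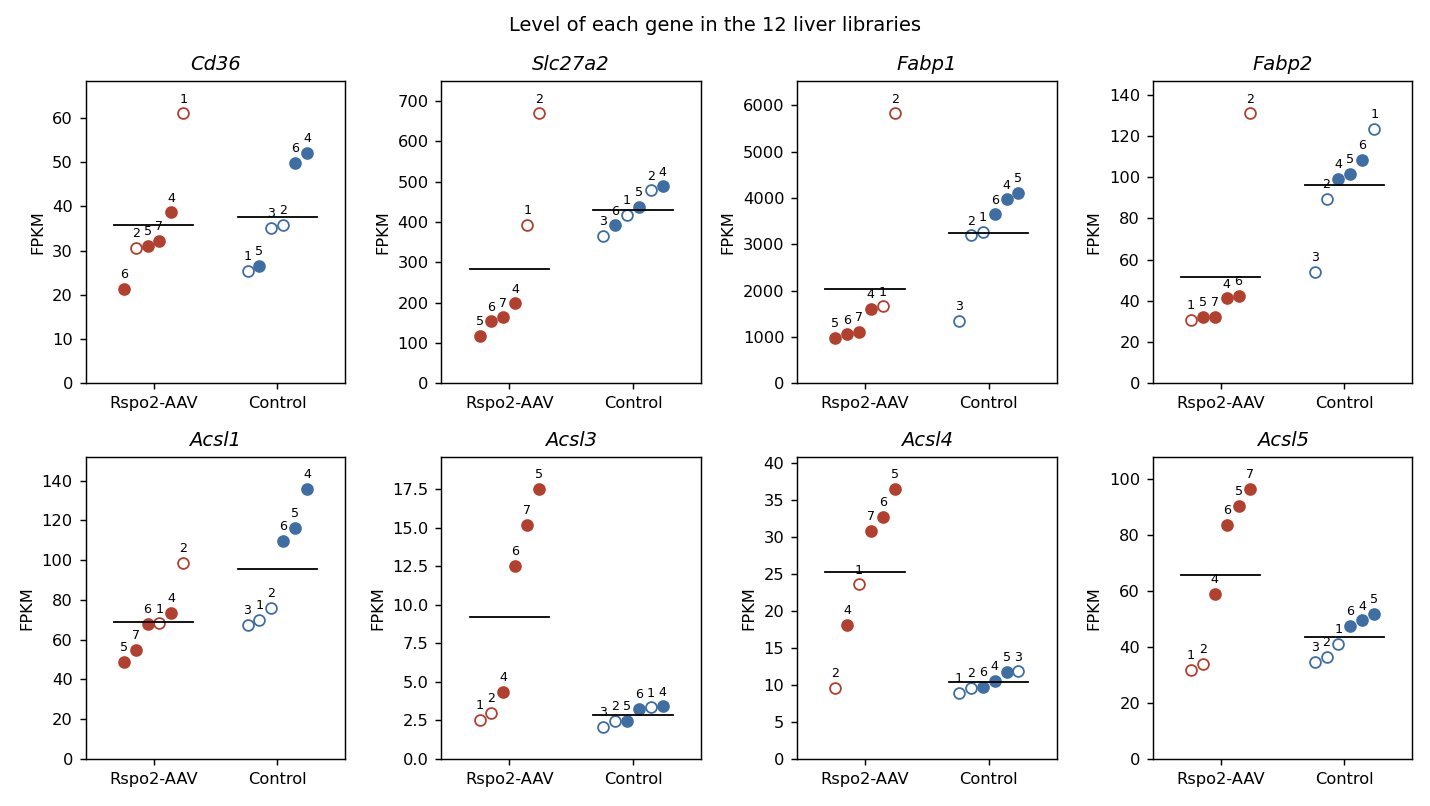
Level of each member in FPKM (vertical axes, each from 0) in 6 Rspo2-AAV and 6 control libraries; the digit beside a point is the library number, open points are numbers 1 to 3, filled points numbers 4 to 7 and horizontal lines group means. Rspo2-AAV 2 lies apart from numbers 4 to 7 of its group in 7 of the 8 panels, with Fabp1 at 5827 FPKM and Acsl4 at 9.60 FPKM.

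The 2 uptake genes behaved differently. Cd36 (ENSMUSG00000002944, GRCm38 chromosome 5, 17781690 to 17888801, minus strand, protein coding) was at 61.1, 30.5, 38.7, 31.0, 21.4 and 32.1 FPKM in Rspo2-AAV 1, 2, 4, 5, 6 and 7, against 25.4, 35.9, 35.2, 52.2, 26.6 and 49.9 FPKM in control 1 to 6. The ranges overlapped almost wholly, with Rspo2-AAV 1 the highest and Rspo2-AAV 6 the lowest of all 12. The means were 35.8 ± 13.5 FPKM in Rspo2-AAV livers and 37.5 ± 11.3 FPKM in control livers (SD, n = 6 each), a log2 change of -0.09 ± 0.24 (SE, adjusted p = 0.881). Cd36 was the member not called in any set of libraries fitted, and its sign turned to 0.44 within numbers 1 to 3 (adjusted p = 0.825) and to 0.04 without Rspo2-AAV 6, 0.02 without control 4 and 0.0055 without control 6. Cd36 is also made by macrophages, endothelial cells and adipocytes, and in bulk tissue fewer cells of a type and less RNA per cell cannot be told apart. The 10 Kupffer cell and macrophage markers summed to 419 to 790.5 FPKM in Rspo2-AAV livers and 614 to 1287 FPKM in control livers, with 0 called higher and 3 lower, and the 10 endothelial markers to 70.9 to 148 FPKM in Rspo2-AAV livers and 95.0 to 165 FPKM in control livers, with 0 called. The 6 adipocyte markers summed to 1.85 to 34.1 FPKM in Rspo2-AAV livers and 2.50 to 80.2 FPKM in control livers. Their sum was highest in control 4, which had the highest Cd36 of the controls. It was lowest in Rspo2-AAV 1, which had the highest Cd36 of all 12 libraries. The 6 recruited macrophage markers summed to 32.8 to 53.3 FPKM in Rspo2-AAV livers and 27.7 to 47.2 FPKM in control livers. Of them 0 were called higher and 1 lower. The sum was 53.3 FPKM in Rspo2-AAV 1, with Cd36 at 61.1 FPKM, and 52.45 FPKM in Rspo2-AAV 2, with Cd36 at 30.5 FPKM. The 8 stellate cell markers summed to 22.1 to 41.3 FPKM in Rspo2-AAV livers and 51.6 to 70.6 FPKM in control livers, with 4 called lower. The part of these cells in the Cd36 level was not tested.

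Slc27a2 encodes FATP2, which takes up long-chain fatty acids and also activates very-long-chain ones at the endoplasmic reticulum and peroxisome. The gene (ENSMUSG00000027359, chromosome 2, 126552407 to 126588243, plus strand, protein coding) was at 394, 669, 198, 118, 153 and 163 FPKM in Rspo2-AAV 1, 2, 4, 5, 6 and 7, against 418, 478, 366, 488, 438 and 391 FPKM in control 1 to 6. Rspo2-AAV 4 to 7 lay below every control, Rspo2-AAV 1 lay within the controls, and Rspo2-AAV 2 lay above all of them. The means were 282.5 ± 213 FPKM in Rspo2-AAV livers and 430.0 ± 48.1 FPKM in control livers (SD, n = 6 each), and the log2 change of -0.88 ± 0.36 was not called (adjusted p = 0.171). Without Rspo2-AAV 2 it was -1.19 ± 0.25 and called (adjusted p = 0.0169).

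The 2 binding proteins were both low in 5 of the 6 Rspo2-AAV libraries. Fabp1 (ENSMUSG00000054422, chromosome 6, 71199827 to 71205023, plus strand, protein coding) was at 1657, 5827, 1598, 983, 1053 and 1113 FPKM in Rspo2-AAV 1, 2, 4, 5, 6 and 7, against 3268, 3193, 1342, 3970, 4103 and 3644 FPKM in control 1 to 6. Rspo2-AAV 2 had the highest Fabp1 of all libraries and control 3 lay with the low Rspo2-AAV libraries, so the groups overlapped. The means were 2039 ± 1878 FPKM in Rspo2-AAV livers and 3253 ± 1005 FPKM in control livers (SD, n = 6 each), with a log2 change of -0.92 ± 0.42 (adjusted p = 0.227) that reached -1.29 ± 0.29 without Rspo2-AAV 2 (adjusted p = 0.0205). Fabp2, the form named for the intestine (ENSMUSG00000023057, chromosome 3, 122895072 to 122899506, plus strand, protein coding), was at 30.6, 131, 41.2, 32.1, 42.2 and 32.2 FPKM in the Rspo2-AAV libraries in that order, against 124, 89.5, 54.1, 99.3, 102 and 108 FPKM in control 1 to 6. Apart from Rspo2-AAV 2, which was above every control, all Rspo2-AAV libraries lay below all controls. Fabp2 averaged 51.6 ± 39.2 FPKM in Rspo2-AAV livers and 96.1 ± 23.5 FPKM in control livers (SD, n = 6 each). Its log2 change was -1.07 ± 0.33 over all libraries (adjusted p = 0.0794), -1.39 ± 0.19 without Rspo2-AAV 2 (adjusted p = 0.0018) and -1.23 without control 3 (adjusted p = 0.0432). It was also called with each library rescaled to the same total (TPM scaling, adjusted p = 0.0338). Of 8 enterocyte markers, Alpi, Sis, Cdx1, Cdx2 and Fabp6 were at 0 in all 12 libraries. The 8 summed to 0.22 to 0.421 FPKM in Rspo2-AAV livers and 0.0212 to 0.0545 FPKM in control livers. These sums are near the floor, and 0 of the 8 were tested.

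The start regions of Fabp1 and Fabp2, the 2 binding protein members, are shown. Both were called lower once Rspo2-AAV 2 was left out, as was Slc27a2, whose window is not printed. Each window holds 250 bases before and 50 after a start site annotated by RefSeq (GRCm38.p6, plus strand, 5′ to 3′), and all 8 members had one or more windows. The windows of the members searched on both strands for 5 motifs: AGGNCANAGGNCA, a direct repeat bound by PPAR with RXR and by HNF4A, AGGNCANNNNAGGNCA, the repeat of LXR, TCACNCCAC, the sterol response element of SREBP, CTTTGAT, the core of TCF/LEF sites, and the E-box CACGTG. Capitals mark a match, here the only one, AGGNCANAGGNCA on the minus strand at positions -67 to -55 from the start site of Fabp1. That motif is in 125 of 32851 promoter windows of the table (0.381%).
Fabp1, chr6:71199629-71199928: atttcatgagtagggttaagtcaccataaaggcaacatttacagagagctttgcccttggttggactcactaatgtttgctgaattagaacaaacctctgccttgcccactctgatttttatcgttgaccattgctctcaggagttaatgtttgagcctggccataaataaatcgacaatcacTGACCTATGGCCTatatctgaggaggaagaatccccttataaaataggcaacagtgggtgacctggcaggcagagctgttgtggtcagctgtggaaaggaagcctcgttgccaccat
Fabp2, chr3:122894822-122895121: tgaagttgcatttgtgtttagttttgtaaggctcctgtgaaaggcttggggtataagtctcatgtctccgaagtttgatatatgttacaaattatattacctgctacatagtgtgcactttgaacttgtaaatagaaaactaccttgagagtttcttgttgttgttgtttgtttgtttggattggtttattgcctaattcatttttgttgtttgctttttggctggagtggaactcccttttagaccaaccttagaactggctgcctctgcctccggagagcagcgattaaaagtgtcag
The Fabp2 window holds none of the 5 motifs, which says only that these letters are not in it. The windows of both genes are poor in CpG, with 3 CpG each and a GC content of 45.0% for Fabp1 and 38.7% for Fabp2, against a median of 52.7% over all windows.

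Among the acyl-CoA synthetases, Acsl4 rose in Rspo2-AAV livers. ACSL4 makes arachidonoyl-CoA for membrane phospholipids. Acsl4 (ENSMUSG00000031278, chromosome X, 142317993 to 142390535, minus strand, protein coding) was at 23.6, 9.60, 18.0, 36.4, 32.7 and 30.8 FPKM in Rspo2-AAV 1, 2, 4, 5, 6 and 7, against 8.89, 9.53, 11.8, 10.5, 11.8 and 9.72 FPKM in control 1 to 6. All Rspo2-AAV libraries but 1 lay above every control, and Rspo2-AAV 2 lay within the controls. The means were 25.2 ± 10.1 FPKM in Rspo2-AAV livers and 10.4 ± 1.21 FPKM in control livers (SD, n = 6 each), with a log2 change of 1.13 ± 0.27 (adjusted p = 0.0306). Without Rspo2-AAV 2 the change was 1.37 ± 0.17 (adjusted p = 0.000942). The call was lost without any one of Rspo2-AAV 5, 6 and 7 and control 2, 4 and 6 (log2 changes of 1.00, 1.03, 1.05, 1.10, 1.13 and 1.11), with no filter on low values, with TPM scaling and with the library number as a block. Acsl4 lies on the X chromosome. The 2 libraries with high Xist and little Y-linked RNA had 23.6 FPKM (Rspo2-AAV 1) and 11.8 FPKM (control 3), and in the 9 libraries with Xist under 1 FPKM its log2 change was 1.46 (adjusted p = 0.00129).

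Acsl3, the lipid droplet isoform, was uneven within the Rspo2-AAV group. Acsl3 (ENSMUSG00000032883, chromosome 1, 78657825 to 78707743, plus strand, protein coding) was at 2.55, 2.99, 4.32, 17.5, 12.5 and 15.2 FPKM in Rspo2-AAV 1, 2, 4, 5, 6 and 7, against 3.34, 2.44, 2.10, 3.41, 2.47 and 3.22 FPKM in control 1 to 6. Rspo2-AAV 5, 6 and 7 lay far above every control, Rspo2-AAV 4 slightly above them, and Rspo2-AAV 1 and 2 within them. Acsl3 averaged 9.17 ± 6.67 FPKM in Rspo2-AAV livers and 2.83 ± 0.559 FPKM in control livers (SD, n = 6 each), and the log2 change of 1.20 ± 0.43 was not called (adjusted p = 0.123). It was called without Rspo2-AAV 1 (1.46, adjusted p = 0.0495). Utp14b, a gene on the same strand that starts inside Acsl3, shares 244 of the 4357 exonic bases of Acsl3 in the GENCODE M21 annotation, so some reads could belong to either gene. Utp14b averaged 3.99 ± 3.55 FPKM in Rspo2-AAV livers and 0.658 ± 0.201 FPKM in control livers (SD, n = 6 each), with a log2 change of 1.54 ± 0.47 (adjusted p = 0.0786).

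Acsl5 (ENSMUSG00000024981, chromosome 19, 55251938 to 55297720, plus strand, protein coding) was at 31.9, 33.9, 59.1, 90.4, 83.7 and 96.5 FPKM in Rspo2-AAV 1, 2, 4, 5, 6 and 7, against 41.0, 36.4, 34.8, 49.5, 51.9 and 47.5 FPKM in control 1 to 6. The Rspo2-AAV libraries lay on both sides of the controls, 1 and 2 below all of them and 4 to 7 above all of them. The log2 change over all 12 libraries was 0.48 ± 0.28 (adjusted p = 0.351). Its exons share 404 bases with Zdhhc6 on the opposite strand, and the use of strand in counting is not given in the sources used here. Zdhhc6 averaged 7.97 FPKM in Rspo2-AAV livers and 9.66 FPKM in control livers.

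Acsl1, the most abundant isoform in the controls (ENSMUSG00000018796, chromosome 8, 46471037 to 46536051, plus strand, protein coding), was at 68.2, 98.6, 73.4, 48.9, 68.1 and 54.8 FPKM in Rspo2-AAV 1, 2, 4, 5, 6 and 7, against 69.9, 75.9, 67.4, 136, 116 and 110 FPKM in control 1 to 6. The controls themselves fell into a lower set, numbers 1 to 3, and a higher set, numbers 4 to 6, and most Rspo2-AAV libraries lay in or below the lower one. The log2 change was -0.46 ± 0.21 (adjusted p = 0.23), and -0.57 ± 0.20 without Rspo2-AAV 2 (adjusted p = 0.109).

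The balance of the isoforms moved with these levels. Acsl1 made up 25.3% to 68.0% of the summed Acsl FPKM in Rspo2-AAV livers, with a median of 41.0%, and 56.8% to 68.2% in control livers, with a median of 62.4%. Acsl5 made up 23.4% to 48.9% in Rspo2-AAV livers and 24.9% to 33.3% in control livers. Acsl4 made up 6.62% to 18.9% in Rspo2-AAV livers and 5.26% to 10.2% in control livers. In Rspo2-AAV 4 to 7 Acsl5 was 38.1% to 48.9% of the sum, while Rspo2-AAV 2, at 23.4%, was below every control. FPKM divides reads by gene length, 10483 bases for Acsl1 and 4864 bases for Acsl5, so these shares are not shares of reads. In Rspo2-AAV 5, 6 and 7 Acsl5 had a larger share than Acsl1, while Acsl1 had more reads. These were 7802, 10393 and 8582 reads of Acsl1 against 6688, 5928 and 7013 reads of Acsl5. The summed level itself overlapped between groups, at 126 to 197 FPKM in Rspo2-AAV livers and 116 to 199 FPKM in control livers. Acsl6, the brain isoform, was at most at 0.0184 FPKM in Rspo2-AAV livers and 0.0275 FPKM in control livers. Each share is the FPKM of an isoform over the summed FPKM of Acsl1, Acsl3, Acsl4, Acsl5 and Acsl6, and was not tested.

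**Figure D2:**
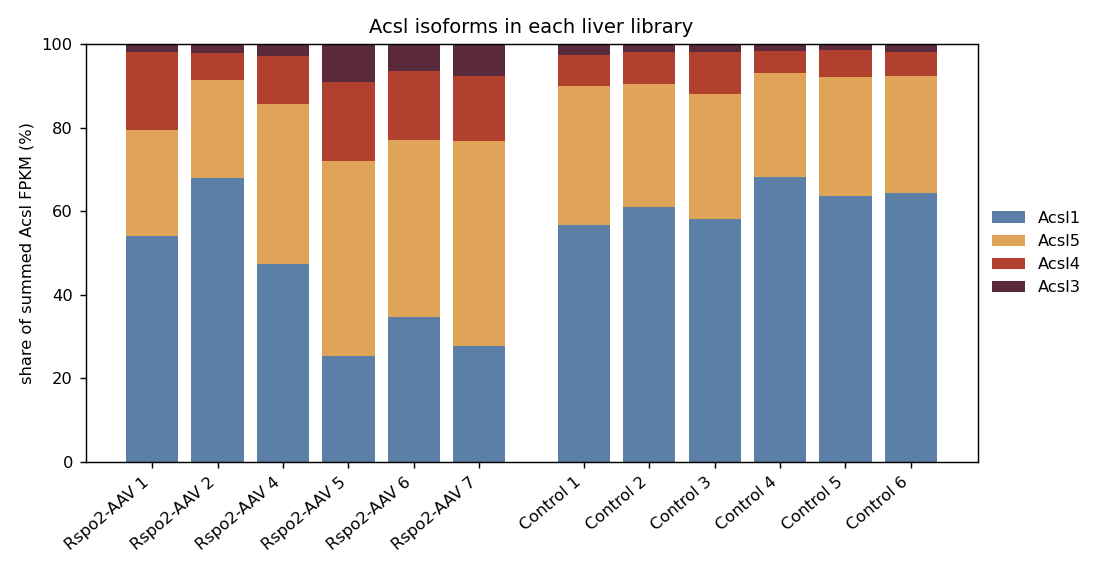
Share of each Acsl isoform in the summed Acsl FPKM of a library (vertical axis, percent), Rspo2-AAV libraries left and control libraries right. FPKM is per gene length, so these are not shares of reads. Acsl1 (lowest segment) is between 25.3% and 47.4% in Rspo2-AAV 4 to 7, 54.0% in Rspo2-AAV 1 and 68.0% in Rspo2-AAV 2, against 56.8% to 68.2% in the controls.

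The start regions of the isoforms with the largest positive log2 changes, Acsl3 and Acsl4, are shown beside the internal start site of Acsl1, the one synthetase window with a match. Acsl3 is on the plus strand, Acsl4 on the minus strand and Acsl1 on the plus strand, with the same build, length and search as above. Capitals in Acsl1 mark TCACNCCAC on the minus strand at positions -76 to -68, a motif found in 408 of 32851 windows (1.24%).
Acsl3, chr1:78657575-78657874: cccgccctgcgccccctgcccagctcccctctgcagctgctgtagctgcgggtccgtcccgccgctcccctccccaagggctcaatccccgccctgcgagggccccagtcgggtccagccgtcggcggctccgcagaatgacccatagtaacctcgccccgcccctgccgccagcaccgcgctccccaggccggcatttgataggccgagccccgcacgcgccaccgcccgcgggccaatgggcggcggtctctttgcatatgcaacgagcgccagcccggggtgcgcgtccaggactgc
Acsl4, chrX:142390486-142390785: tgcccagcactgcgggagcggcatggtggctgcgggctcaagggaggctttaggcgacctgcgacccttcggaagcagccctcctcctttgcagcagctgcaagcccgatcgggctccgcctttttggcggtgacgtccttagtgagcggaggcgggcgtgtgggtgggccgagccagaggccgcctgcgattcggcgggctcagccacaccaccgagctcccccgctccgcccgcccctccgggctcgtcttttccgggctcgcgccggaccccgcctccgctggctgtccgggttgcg
Acsl1, chr8:46490716-46491015: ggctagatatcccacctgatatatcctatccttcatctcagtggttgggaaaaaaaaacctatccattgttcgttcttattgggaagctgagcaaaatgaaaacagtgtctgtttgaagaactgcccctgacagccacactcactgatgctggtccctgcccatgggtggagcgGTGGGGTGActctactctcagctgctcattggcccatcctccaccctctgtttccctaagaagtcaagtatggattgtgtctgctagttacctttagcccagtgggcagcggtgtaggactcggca
The Acsl3 and Acsl4 windows held none of the 5 motifs and 33 CpG each, with a GC content of 74.0% and 71.7%. The motif AGGNCANNNNAGGNCA is in 0.253%, CTTTGAT in 3.73% and CACGTG in 7.15% of all windows, and none of them is in a window of any member. A match or its absence in these windows is a description of the letters only.

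Within libraries numbered 4 to 7 (4 Rspo2-AAV, 3 control), 7 of the 8 members were called, against 13.3% of all tested genes, 3 higher (6.34% of tested genes) and 4 lower (6.92%). Their groups did not overlap for the same 7, against 28.9% of tested genes. Acsl3 rose by 1.72 ± 0.43 (SE, adjusted p = 0.0406), Acsl4 by 1.38 ± 0.23 (adjusted p = 0.0105) and Acsl5 by 0.70 ± 0.16 (adjusted p = 0.0328) on the log2 scale. Fabp1 had a log2 change of -1.74 ± 0.17 (adjusted p = 0.00201), with 1187 FPKM on average in Rspo2-AAV livers and 3906 FPKM in control livers. Slc27a2 had -1.49 ± 0.17 (adjusted p = 0.00327), Fabp2 -1.48 ± 0.12 (adjusted p = 0.00114) and Acsl1 -0.98 ± 0.16 (adjusted p = 0.00938), all lower. Cd36 had -0.44 ± 0.28 and was not called (adjusted p = 0.319). The same 3 rises and the falls of Fabp1, Fabp2 and Slc27a2 were also called in the 9 libraries with Xist under 1 FPKM (6 of 8 members, against 12.8% of tested genes, 6.0% higher and 6.75% lower), where Acsl1 was not (-0.69, adjusted p = 0.0624). That set includes numbers 1 and 2 among the controls and none under 4 among Rspo2-AAV, so its groups differ in their numbers as well.

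**Figure D3:**
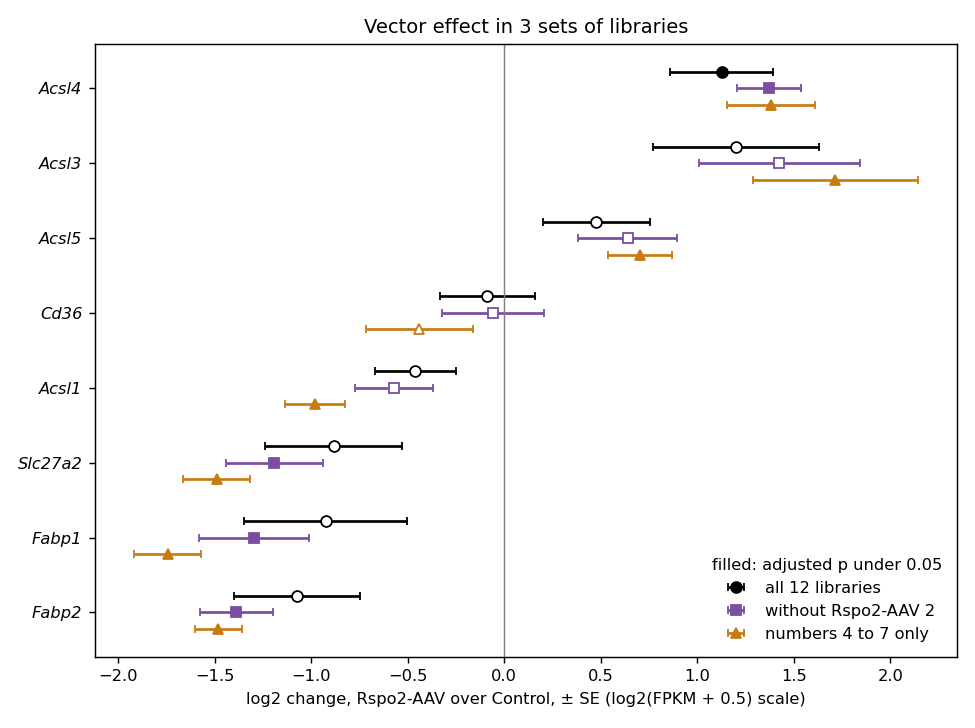
Log2 change of each member, Rspo2-AAV over control (horizontal axis, with SE bars), in all 12 libraries (circles), without Rspo2-AAV 2 (squares) and within numbers 4 to 7 (triangles); filled symbols have an adjusted p under 0.05. Acsl4 is filled in all 3 sets, Fabp1, Fabp2 and Slc27a2 in 2 of them, Acsl3, Acsl5 and Acsl1 within numbers 4 to 7 alone, and Cd36 in none.

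Libraries numbered 1 to 3 (2 Rspo2-AAV, 3 control) gave no call by limma for any member or any other gene. Rspo2 itself had a log2 change of 7.30 there and was not called (limma, adjusted p = 0.0521). A missing call in so few libraries thus does not show a missing effect. Of the 8 members 0 had an unadjusted p under 0.05, against 7.1% of tested genes. The 2 Rspo2-AAV libraries there differed from each other. Both had less Rspo2, at 122 and 49.9 FPKM, than Rspo2-AAV 4 to 7, at 265 to 573 FPKM. Number set and Rspo2 level thus went together among the Rspo2-AAV libraries, and their parts were not tested. Rspo2-AAV 1 had low Fabp2 (30.6 FPKM) and raised Acsl4 (23.6 FPKM) like numbers 4 to 7 but Slc27a2 (394 FPKM) and Acsl3 (2.55 FPKM) within the controls. Set beside control 3, the other library with high Xist, Rspo2-AAV 1 had 1657 FPKM of Fabp1 against 1342 FPKM, 30.6 FPKM of Fabp2 against 54.1 FPKM, 61.1 FPKM of Cd36 against 35.2 FPKM and 23.6 FPKM of Acsl4 against 11.8 FPKM, with no replicate of either. The difference in vector effect between numbers 4 to 7 and 1 to 3, tested as an interaction, was called for 0 of the 8 members by limma, against 0.245% of tested genes. It was largest for Fabp1 (-2.11 ± 0.67 on the log2 scale, adjusted p = 0.291) and Slc27a2 (-1.79 ± 0.35, adjusted p = 0.0798), and 5 of the 8, Fabp1, Slc27a2, Acsl1, Acsl3 and Acsl5, had an unadjusted p under 0.05, against 11.5% of tested genes.

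Other genes of fatty acid handling were read from 7 lists holding 64 genes, of which 49 were tested. Over all 12 libraries 3 were higher and 1 lower (2.55% and 2.65% of all tested genes), with a median log2 change of -0.02. Of 4 tested fatty acid transport protein genes 0 were called, and Slc27a5, the bile acid-CoA synthetase of the family, was at 298 ± 22.5 FPKM in Rspo2-AAV livers and 294.5 ± 44.2 FPKM in control livers (SD, n = 6 each), while Slc27a4 had a log2 change of -0.12. Of 3 tested binding protein genes 1 rose, Fabp5, the epidermal form, at 12.7 ± 6.13 FPKM in Rspo2-AAV livers and 4.31 ± 1.66 FPKM in control livers (log2 change 1.35 ± 0.35, adjusted p = 0.0465). Leaving out single libraries ended that call in 9 of 12 cases. Of 7 tested synthetase genes 1 rose, Acss2, which makes acetyl-CoA from acetate, at 7.83 to 106 FPKM in Rspo2-AAV livers and 5.16 to 7.60 FPKM in control livers (2.16 ± 0.55, adjusted p = 0.0419, lost in 10 of 12 such cases). Acss2 was at 42.3 to 106 FPKM in Rspo2-AAV 4 to 7 and at 7.83 and 9.06 FPKM in Rspo2-AAV 1 and 2, the same division as in Acsl3 and Acsl5. The calls on Fabp5 and Acss2 were also lost with no filter on low values (adjusted p = 0.106 and 0.0974), with the library number as a block (0.202 and 0.127) and without Rspo2-AAV 4 and 5 (0.16 and 0.162), that on Fabp5 with a term for the number set (0.0549) and that on Acss2 with TPM scaling (0.0517).

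None of 6 acyl-CoA binding protein genes and none of 10 thioesterase genes was called by limma over all libraries. Scp2, a peroxisomal carrier of sterols and acyl-CoA, was at 731.5 ± 190 FPKM in Rspo2-AAV livers and 1252 ± 357 FPKM in control livers (SD, n = 6 each; adjusted p = 0.117, and 0.0099 without control 3). Dbi, the acyl-CoA binding protein of the cytosol, had a log2 change of 0.28, and the thioesterase genes Acot13 and Acot12 had -0.09 and -0.25. Of 8 genes of CD36 palmitoylation and its membrane partners 1 fell, Lyn, a Src-family kinase, at 7.71 ± 0.942 FPKM in Rspo2-AAV livers and 11.1 ± 1.29 FPKM in control livers (log2 change -0.50 ± 0.10, adjusted p = 0.0165). The call on Lyn was lost with TPM scaling (adjusted p = 0.216), with the library number as a block (0.139) and without Rspo2-AAV 4 and 5 (0.0817). Lyn is also made by blood cells, for which no marker list was read, and by macrophages, whose marker sums are given above. The part of these cells in the Lyn level was not tested. Of 11 transcription factor genes 1 rose, Srebf2, the regulator of cholesterol synthesis (1.37 ± 0.25, adjusted p = 0.00797). Ppara, Hnf4a and Rxra, which act on Fabp1 and Acsl1, had log2 changes of -0.14, -0.02 and -0.11 and were not called. They stand here as a choice made after their values were seen. In the same list Ppard (0.75) and Ppargc1a (0.62) had larger changes without a call, and the other uncalled genes lay between -0.07 and 0.18. RNA level does not show the activity of these factors, which was not tested. Of these 49 genes, 5 rose and 8 fell within numbers 4 to 7, where 6.34% of all tested genes were called higher and 6.92% lower. Their median log2 change there was -0.12, against 0.02 for all tested genes.

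**Figure D4:**
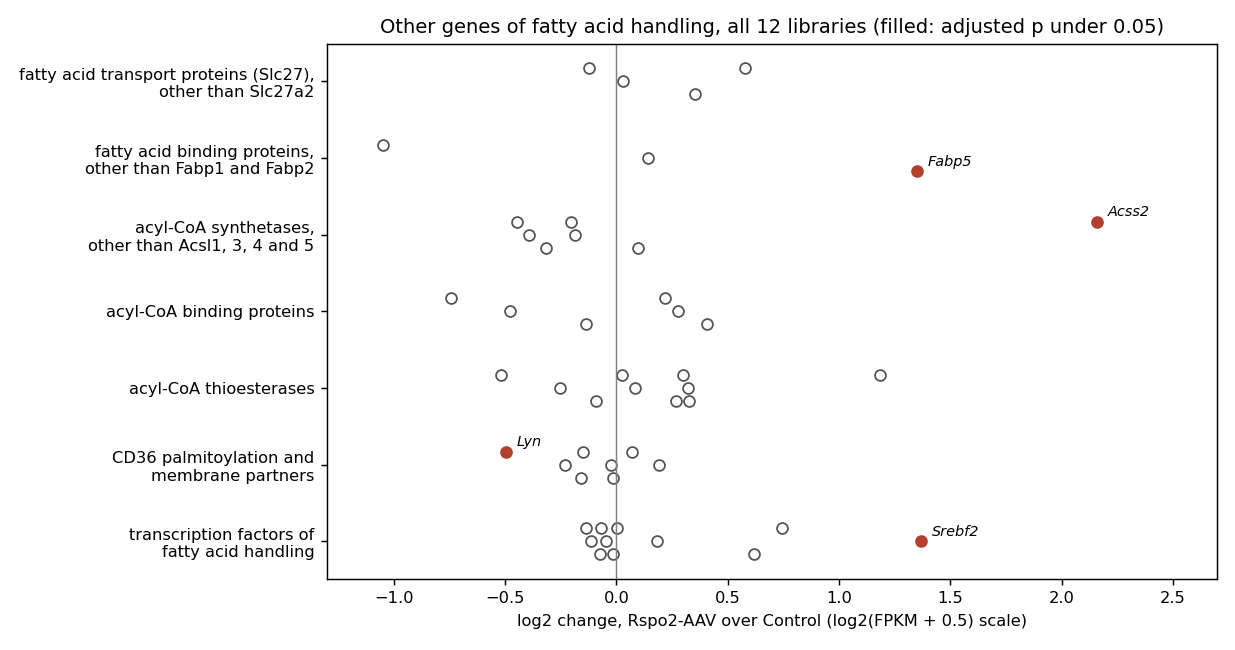
Log2 change, Rspo2-AAV over control (horizontal axis), of the 49 tested genes in 7 lists (rows), 1 point per gene over all 12 libraries; filled points have an adjusted p under 0.05. Fabp5, Acss2 and Srebf2 lie at 1.35, 2.16 and 1.37 and Lyn at -0.50, and the other 45 are open.

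Likeness of pattern was measured as Pearson r of log2(FPKM + 0.5) over the 12 libraries among 10109 protein-coding genes averaging 1 FPKM or more, as a description in which group, number and library are shared by all points. Nearest to Acsl3 were Chrna4 (0.982), the sterol enzyme gene Sc5d (0.982) and its overlapping neighbour Utp14b (0.975). Acsl4 was nearest to the sterol enzyme gene Hsd17b7 (0.954), Srebf2 (0.954) and Scpep1 (0.952), and Acsl5 to Selenoi (0.963), Sc5d (0.963) and Gabbr2 (0.962). Slc27a2 was nearest to Abcb4 (0.972), the phospholipid exporter of bile, and Il15ra (0.970). Fabp1 was nearest to Ppm1m (0.953), Cyp2c23 (0.951) and Decr1 (0.939), a mitochondrial beta-oxidation enzyme. Fabp2 was nearest to B2m (0.970), Ces3a (0.959) and Mup3 (0.959). Some reads of Mup3 could belong to other genes of its family, which was not tested. Acsl1 was nearest to Acaa1b (0.932), a peroxisomal thiolase, Rbpms2 (0.931) and the medium-chain synthetase gene Acsm5 (0.925). Cd36 had looser neighbours, Irf8, a transcription factor of myeloid cells (0.872), Dgkd (0.850) and Sertad2 (0.844). Leaving out 1 library brought none of these values below 0.777. Among the members themselves, Fabp1 and Fabp2 had r = 0.925 and Acsl3 and Acsl5 r = 0.926, while Fabp2 and Acsl4 had r = -0.906.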

How the data were processed

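The authors deposited 1 table of FPKM values for 54532 genes in 12 liver libraries, with position and gene length. The submitters' processing notes name GRCm38 (mm10) as build and list DESeq2 (1.20.0), featureCounts (1.5.0-p3) and HISAT2 (2.0.5) without their roles. Columns were matched to samples by group letter and number. Multiplying the deposited FPKM by gene length gave whole multiples of 1 read within 0.01 for 100% of positive values. The recovered totals were 14295644 to 22195576 reads. The reads entered only the limma-voom alternative, which called 322 genes higher and 346 lower. Its library sizes were those implied by the deposited FPKM, not the recovered totals. Median-of-ratios size factors account for the library scaling in the deposited FPKM.

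The 13447 genes averaging 0.5 FPKM or more were fitted with limma 3.58.1 in R 4.3.3 (lmFit, eBayes with trend) on log2(FPKM + 0.5), a scale that understates changes of low genes, with Benjamini-Hochberg adjustment. The fit was tested on simulated data. Called means an adjusted p under 0.05. The authors' other columns were used only as annotation. Members and lists were chosen with earlier results of these data known. Named genes were the members, up to 4 called genes a list (otherwise the 2 most abundant) and the 3 genes most like each member, of which 1 is not reported here. Alternatives covered pseudocount, filter, scaling, model, blocks and left-out libraries.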

Additional observations from a re-analysis of the deposited data

Results flagged for a closer look

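In 36 groups of 6 libraries (18 genes in each group), 7 values stood further from the rest of their group than a Dixon test at the 95% level allows, where chance flags about 1 in 20 groups. In all, 3 were in Rspo2-AAV 2, all as the highest of that group. They were Fabp1 at 5827 FPKM, against 983 to 1657 FPKM in the other 5, Fabp2 at 131 FPKM, against 30.6 to 42.2 FPKM, and Acot13 at 92.8 FPKM, against 34.6 to 46.2 FPKM. A pair was in control 3 as the lowest, Fabp1 at 1342 FPKM, against 3193 to 4103 FPKM in the other controls, and Scp2 at 552 FPKM, against 1270 to 1557 FPKM. The other two were Slc27a5 in control 2 at 205.4 FPKM, against 304 to 323 FPKM, and Acot13 in control 1 at 71.3 FPKM, against 38.0 to 48.7 FPKM. The vector effect on Acss2 was larger in numbers 4 to 7 than in numbers 1 to 3 by 2.60 ± 0.39 on the log2 scale (SE, limma interaction, adjusted p = 0.0288, and 0.0818 with a pseudocount of 0.1).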

How the results depend on the processing

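Other pseudocounts, a filter of at least 1 FPKM, limma-voom, eBayes without trend and a term for the number set changed no call of the 8 members. Median-of-ratios scaling is already in the deposited values, so repeating it tests nothing. Within numbers 4 to 7 the log2 changes were -1.49 for Slc27a2, -1.74 for Fabp1, -1.48 for Fabp2, -0.98 for Acsl1, 1.72 for Acsl3 and 0.70 for Acsl5, with 3 members higher and 4 lower, 5 and 8 list genes, and 853 and 931 of all genes (343 and 356 over all libraries); Slc27a5 was at -0.059. Within numbers 1 to 3 Cd36 was at 0.44, Slc27a2 at 0.29, Fabp1 at 0.37, Fabp2 at -0.41, Acsl1 at 0.21, Acsl3 at 0.080, Acsl4 at 0.57 and Acsl5 at -0.18. Acot13 was at 0.22 and Acot12 at 0.37 there, with 0 members and 0 genes called. In the 9 libraries with Xist under 1 FPKM Slc27a2 was at -1.50, Fabp1 at -1.63, Fabp2 at -1.49, Acsl3 at 1.74 and Acsl5 at 0.85, with 3 members higher and 3 lower and 807 and 908 genes; Apoe was at -0.052. Without Rspo2-AAV 1 and 2, with control 1 to 3 kept, the values were -1.46, -1.40, -1.34, 1.81 and 0.91 in that order, with 3 and 3 members and 670 and 677 genes.

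Without Rspo2-AAV 4 and 5 Acsl4 was at 1.05 and not called, 0 members were, and 117 genes were higher and 120 lower; Slc27a5 was at -0.0012 and Acot13 at 0.043. TPM scaling gave Acsl4 1.15 without a call and Fabp2 -1.07 with one, so 0 members were higher and 1 lower, and 197 and 183 genes. With no filter Acsl4 (1.13) lost its call, leaving 0 members and 195 and 216 genes. With the replicate block Acsl4 (1.08) lost its call, leaving 0 members and 145 and 153 genes. Same-numbered libraries deviated from their group means with correlations of -0.249 to 0.156 over 5 pairs, so the numbers were not taken as pairs. Of the 5 Rspo2-AAV libraries, 1 correlated best with the control of its own number and all 5 with a control of their own number set. The causes of these differences were not tested.

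Leaving out 1 library gave log2 changes of -0.25 to 0.044 for Cd36, -1.19 to -0.69 for Slc27a2, -1.29 to -0.78 for Fabp1, -1.39 to -0.97 for Fabp2, -0.57 to -0.35 for Acsl1, 0.95 to 1.46 for Acsl3, 1.00 to 1.37 for Acsl4 and 0.34 to 0.66 for Acsl5, with 0 to 2 members higher, 0 to 3 lower, 1 to 3 list genes higher, 1 to 2 lower, and 162 to 421 and 170 to 492 genes. Slc27a5 ranged from -0.070 to 0.069 and Acot13 from -0.29 to 0.016.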
